A study of Rattus norvegicus with 12 samples.

Results

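The alpha-2u-globulins, named major urinary proteins (Mup) and Obp3 in current rat annotation, were described here across livers of male and female rats with and without a pituitary. The members were all non-control probes of the array whose gene name was Obp3, Mup4, Mup5, LOC259244, LOC259245, LOC259246 or LOC298111, which gave 7 genes and 11 probes of 41012 distinct probes. Obp3, Mup4, LOC259244 and LOC298111 had 1 probe each, Mup5 and LOC259246 had 2 and LOC259245 had 3.

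Liver RNA was compared on 12 two-colour oligonucleotide arrays, in 6 comparisons of 2 arrays with the dyes swapped. All animals were Fischer 344 rats of 12 weeks, per the labels. The 6 RNAs came from intact untreated males, intact untreated females, hypophysectomised (Hypox) males, Hypox females, Hypox males given 1 injection of growth hormone (GH) and Hypox males given 2 injections of GH. Removal of the pituitary takes away GH together with the other pituitary hormones, and both GH groups carried it too. Pools held 3 to 4 livers, so the spread between arrays is that of pools and hybridisations, not of single animals. A single pool of 4 livers, from rats killed 30, 60 and 90 min after injection, made up the 1-injection RNA. A single pool of 5 livers, from rats injected 3 or 4 h apart, made up the 2-injection RNA. Each of those pools was used on both of its arrays. The labels used here do not say how the other pools were spread over the arrays, and no hormone dose was used here.

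Alpha-2u-globulins are small secreted lipocalins, barrel-shaped proteins that hold small lipophilic ligands in a central pocket. In the rat they are made by hepatocytes, pass through the blood and the kidney filter and leave in the urine, where they carry scent signals. They are a classic sex-dependent product of the liver: adult males make them in large amounts, and their genes are known to need GH and to answer to androgens, glucocorticoids, thyroid hormone and insulin. Male rats secrete GH in pulses and females almost continuously, and the pulses act in hepatocytes through the GH receptor, the kinase JAK2 and the transcription factor STAT5B.

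The genes lie together. By accession, 5 of the 11 probes and 5 of the 7 genes matched the RefSeq annotation (assembly GRCr8), in which LOC259244 is named Mup4l4 and LOC298111 is named Mup4l3. All 5 were on chromosome 5, in the order Obp3, Mup4l4, Mup4, Mup5, Mup4l3, within a stretch of 26 genes of which 10 have Obp3 or Mup names, 3 of those pseudogenes. LOC259245 and LOC259246 were not matched. A family of such near-identical copies can share transcripts with a probe, so a value given to 1 member may hold RNA of another. Probe sequences were not used here.

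The likeness of the members shows in the promoters of 5 of them, printed here. The part of these sequences in the changes that follow was not tested. RefSeq's table (GRCr8) had a window for the same 5 genes, 250 bases before to 50 after the annotated start, all on the minus strand. Each is printed 5′ to 3′ from the first base of its window to the TATA box. Capitals mark matches on either strand to TATAAA, to TTGCNNAA, to AGAACA and to TTC and GAA set apart by 4 bases.

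Obp3 (chr5:79640703-79640925): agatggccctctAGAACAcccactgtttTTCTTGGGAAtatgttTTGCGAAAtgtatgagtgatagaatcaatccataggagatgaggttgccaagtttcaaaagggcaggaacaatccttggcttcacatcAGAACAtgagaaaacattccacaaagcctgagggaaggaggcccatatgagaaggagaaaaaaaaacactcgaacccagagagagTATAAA
Mup4 (chr5:79759543-79759746): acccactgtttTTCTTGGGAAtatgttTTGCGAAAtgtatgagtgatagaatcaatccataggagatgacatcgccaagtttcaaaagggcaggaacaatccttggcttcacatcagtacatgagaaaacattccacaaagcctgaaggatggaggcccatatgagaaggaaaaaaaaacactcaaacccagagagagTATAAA
Mup5 (chr5:79999742-79999945): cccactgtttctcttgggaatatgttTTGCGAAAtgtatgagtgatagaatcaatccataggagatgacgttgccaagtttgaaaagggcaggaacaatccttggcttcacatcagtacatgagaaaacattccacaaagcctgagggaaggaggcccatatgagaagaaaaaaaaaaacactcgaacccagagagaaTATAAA
Mup4l4, the LOC259244 gene (chr5:79707854-79708057): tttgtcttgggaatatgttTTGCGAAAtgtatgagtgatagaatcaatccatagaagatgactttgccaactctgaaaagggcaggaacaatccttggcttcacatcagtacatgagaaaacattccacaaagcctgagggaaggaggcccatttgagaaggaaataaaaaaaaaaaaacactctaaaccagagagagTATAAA
Mup4l3, the LOC298111 gene (chr5:80318400-80318622): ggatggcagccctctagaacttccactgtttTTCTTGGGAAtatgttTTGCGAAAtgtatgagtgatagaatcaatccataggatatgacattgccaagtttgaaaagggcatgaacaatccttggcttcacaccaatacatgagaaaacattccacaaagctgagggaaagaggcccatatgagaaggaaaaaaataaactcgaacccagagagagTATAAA

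In the 10 pairwise alignments of these stretches, 88.7% to 96.6% of the aligned columns were identical, lowest for Mup4l4 with Mup4l3 and highest for Obp3 with Mup5. The TATA box and the TTGCGAAA match, a form of the motif TTGCNNAA read by C/EBP factors, were in all 5, while 14.2% of 33469 rat promoter windows of 300 bases held TATAAA and 10.6% held TTGCNNAA. The repeat of TTC and GAA set apart by 4 bases was in Obp3, Mup4 and Mup4l3 as TTCTTGGGAA and in 7.28% of all windows. TTCNNNGAA, with a shorter spacer and known as the motif of STAT5, was in 8.87% of windows and in none of these stretches. AGAACA, the half-site of the glucocorticoid receptor, occurred 2 times in Obp3, in none of the other 4 stretches and in 20.7% of windows. The first of the Obp3 matches lies 205 bases before the TATA box and the second 85. The stretches of Mup4, Mup5 and Mup4l4 hold 204 bases with the TATA box, so they do not reach the place of the first. A match is a description of letters and not a bound site, and the rat windows counted include parts after the start that are not printed here.

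The fluorescence of single RNAs is described first, because the arrays with intact male RNA stood apart at these probes. Intact male RNA gave mean spot intensities between 108686 and 428165 on all of its 44 readings (11 probes on 4 arrays), all marked in the deposited files as scaled up from a scan at lower detector gain, and none marked saturated. That mark was also on 11 of 44 readings of intact female RNA, 9 of 88 of Hypox male RNA, 0 of 44 of Hypox female RNA and 10 of 22 after each number of GH injections. For Obp3 they were 259132 and 256564 in red (Alexa 647) and 213498 and 202912 in green (Alexa 555). Intact female RNA at Obp3 read 957 in red and 2765 in green beside Hypox female RNA, but 22335 in red and 942 in green beside intact male RNA. Hypox male RNA at Obp3 read 307 to 487 on its 6 arrays without intact male RNA, and 19886 in red and 1079 in green beside it.

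**Figure D1:**
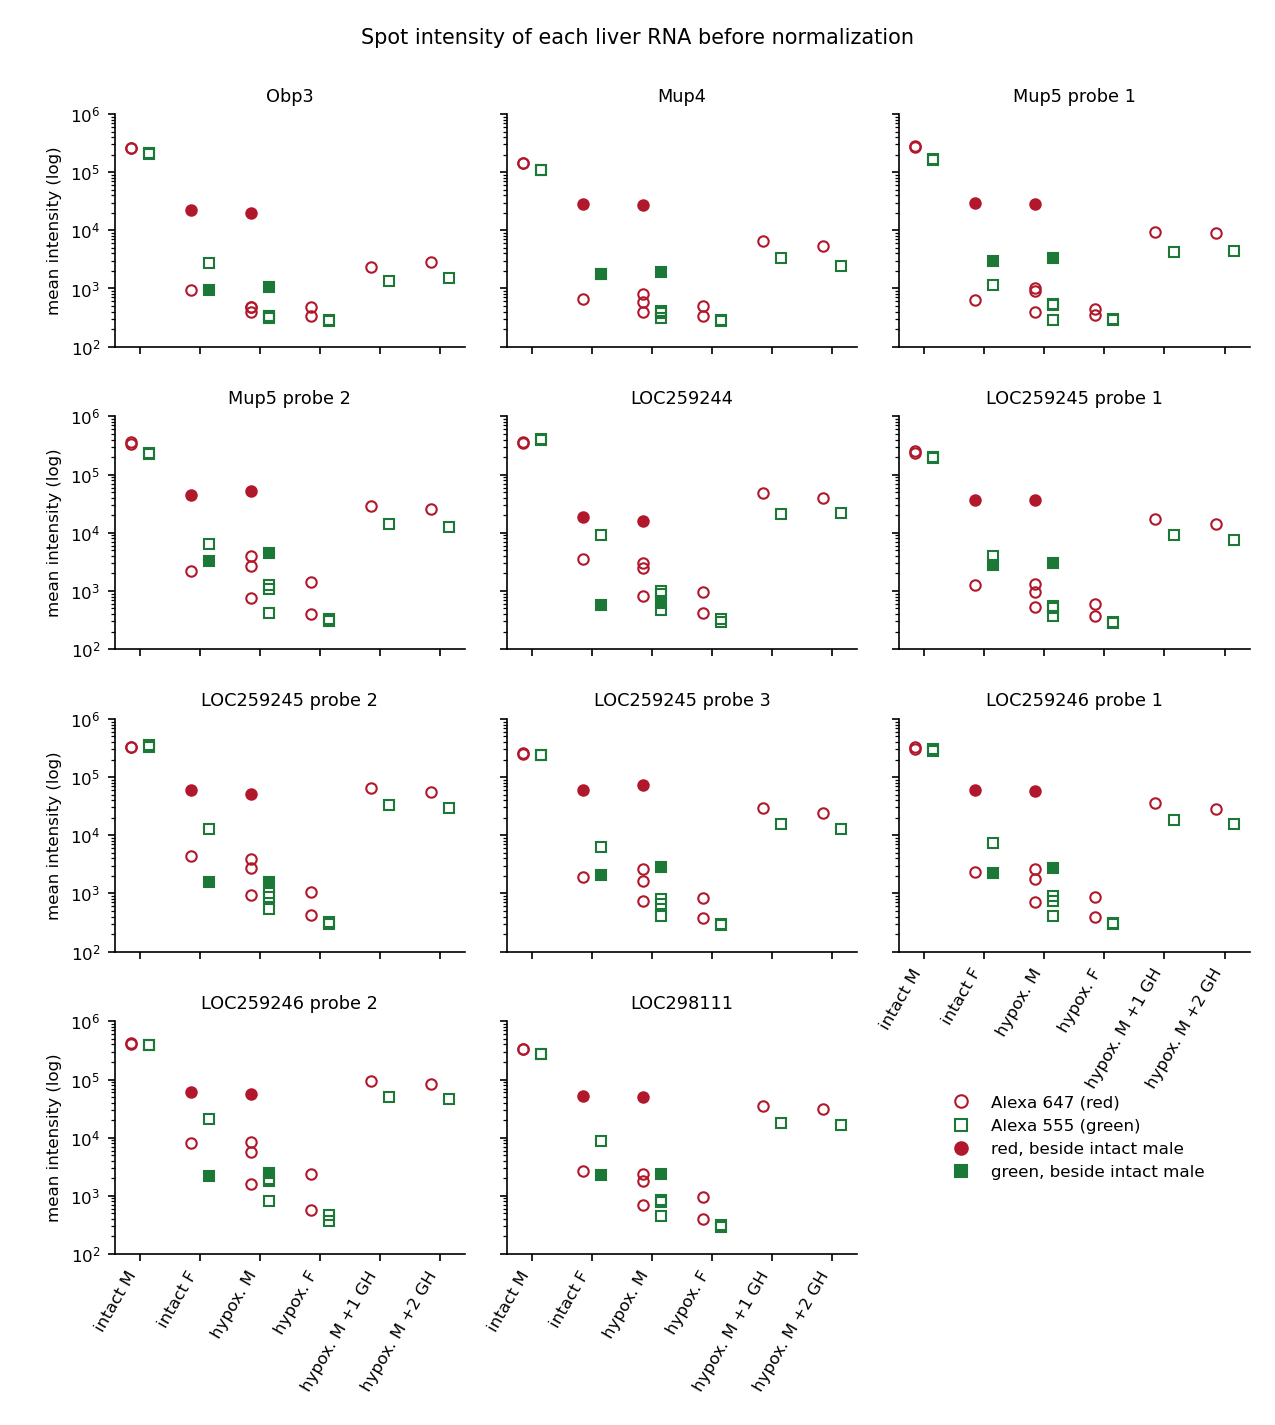
Mean spot intensity before normalization (log axis) of each liver RNA at each of the 11 probes, 1 panel per probe, with red circles for Alexa 647, green squares for Alexa 555 and filled symbols for RNA hybridised beside intact male RNA. Intact male spots lie between 108686 and 428165, and the filled red circles of intact female and Hypox male RNA (16056 to 72302) lie above the open symbols of the same RNA at every probe.

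In red the same held for the other probes. In green it did not hold at every probe. At LOC259244 Hypox male RNA read 625 in green beside intact male RNA, within the 477 to 3023 read without it. Intact female RNA at LOC259244 read 580 in green beside intact male RNA and 9255 in green beside Hypox female RNA. Beside green intact male RNA, the red reading was 18847 to 61153 for intact female RNA and 16056 to 72302 for Hypox male RNA, which is 4.79% to 25.9% and 3.91% to 29.9% of the male reading of the same spot. Beside red intact male RNA, the green reading was 580 to 3221 for intact female and 624.6 to 4426 for Hypox male RNA, or 0.165% to 1.23% and 0.174% to 1.34%. Read in the same dye, the Hypox male reading was 0.852 to 1.23 times the intact female reading in red and 1.02 to 1.37 times in green. After normalization, the log2 intensity of Hypox male RNA was 1.23 to 4.80 higher (median 3.80) with intact male RNA on the array than without, higher at 11 of 11 probes and without overlap at 8. Over 28965 probes the median of that difference was -0.0066 with SD 0.15, and 16 probes (0.0552%) exceeded 2. For intact female RNA it ran from -1.41 to 3.57 (median 1.22, higher at 9 of 11 probes). In these arrays the dye and the slide (2 or 3) change together and cannot be told apart, and the labels do not tie a pool to an array. The part of the detector scaling in these readings was not tested. The direct ratios of the member probes that involve intact males are therefore given for both arrays. Values derived from these ratios, and the ratios of other genes, are given as fitted.

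By normalized log2 intensity, the order of the RNAs at Obp3 was intact male (17.52 to 18.63, median 18.11, n = 4 arrays), intact female (9.26 to 13.55, median 10.72, n = 4), Hypox male after 1 GH injection (10.58 and 10.62) or 2 (10.45 and 10.74), Hypox male (7.04 to 13.47, median 7.34, n = 8) and Hypox female (6.12 to 7.44, median 6.25, n = 4). Intact male RNA overlapped with no other. Intact female RNA overlapped with both GH groups and with Hypox male RNA. The Hypox male range also held both GH groups and overlapped with that of Hypox females. On arrays without intact male RNA, Hypox male RNA was at 7.04 to 7.51, below the GH groups and below intact female RNA (9.26 and 11.64, mean 10.45). The place of intact females above the GH groups at Obp3 thus rests on readings beside intact male RNA. For LOC259244 the medians had the order intact male (18.81), 1 injection (14.99), 2 injections (14.70), intact female (12.33), Hypox male (9.99) and Hypox female (6.99), so that the GH groups stood above intact females (8.78 to 13.45) there without overlap.

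Intact males were compared with intact females to measure the sex dependence. Every member was higher in males: 11 of 11 probes were called higher (limma, Benjamini-Hochberg adjusted p from 4.99e-06 to 0.000409), against 8.07% of the 25702 probes tested. The log2 ratio of male to female ran from 4.78 (Mup4) to 7.74 (LOC259244) with a median of 5.36, against -0.0052 over all probes, and the members took ranks between 1 and 29 by size of ratio.

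Obp3, the family member named as an odorant-binding protein, had log2 ratios of 7.73 on array 1 and 5.04 on array 2. It was fitted as 6.39 ± 0.61 (SE, n = 2 arrays) or 83.6-fold. The SE of a probe comes from 1 spread fitted over all 12 arrays and is the same in all 6 comparisons. It does not show how far the 2 arrays of a comparison differ. LOC259244 had 9.19 and 6.28, fitted as 7.74 ± 0.48 (213-fold), the largest ratio of all probes tested. Mup4 had 5.79 and 3.78, fitted as 4.78 ± 0.49 (27.5-fold). On every one of these probes the array with male RNA in red gave the larger ratio. The 2 Mup5 probes gave 5.09 ± 0.39 (5.83 and 4.36 on the arrays) and 5.09 ± 0.24 (5.96 and 4.21). LOC298111 gave 5.42 ± 0.42 (6.51 and 4.33). The probes of the remaining genes lay within that range. The 3 LOC259245 probes gave 5.00 (5.74 and 4.25), 5.83 (7.15 and 4.52) and 5.13 (6.29 and 3.98), and the 2 LOC259246 probes 5.36 (6.42 and 4.30) and 5.76 (6.86 and 4.66). Over the 11 probes array 1 gave 5.74 to 9.19 and array 2 gave 3.78 to 6.28. All 11 were called without either array, with a median of 4.64 without array 1 and 6.08 without array 2.

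**Figure D2:**
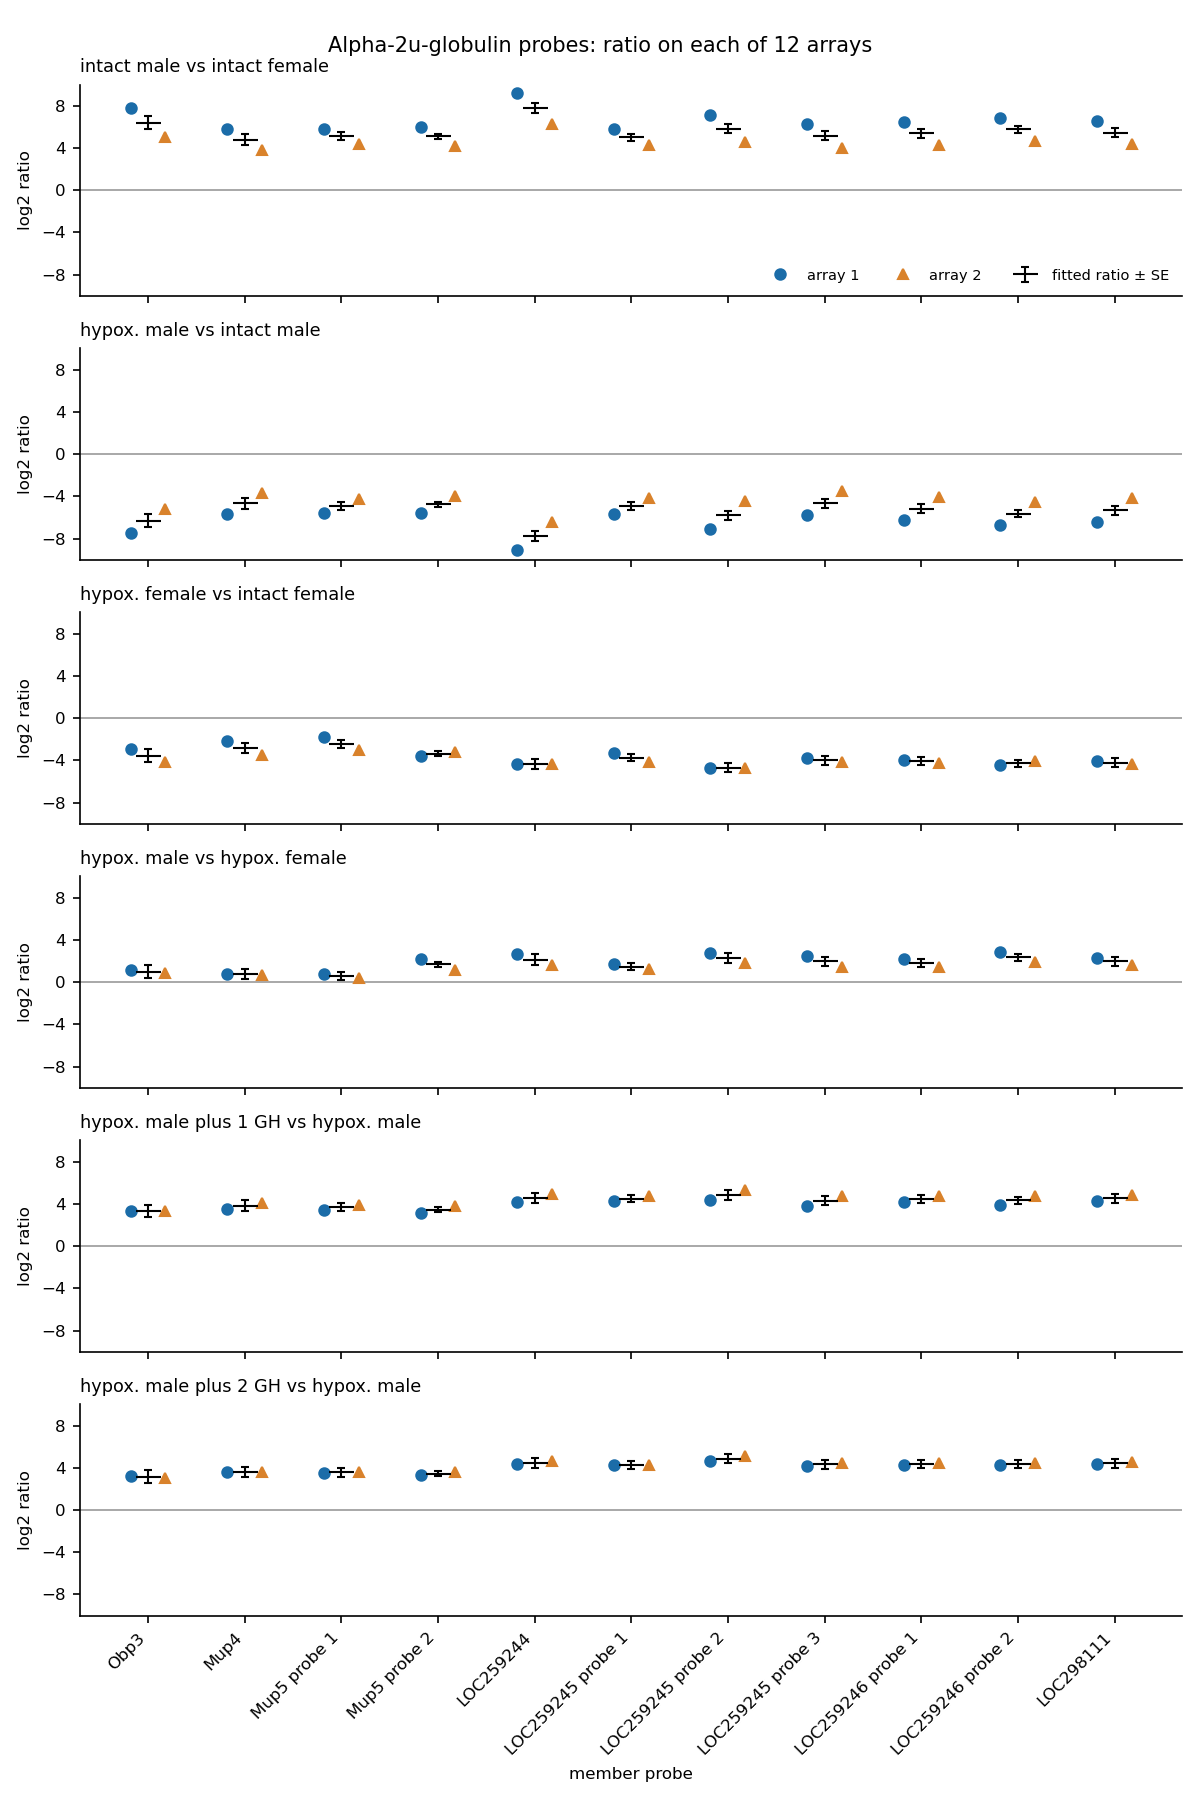
Log2 ratios of the 11 member probes, 1 panel for each of the 6 comparisons, on array 1 (circles) and array 2 (triangles). Bars are the fitted ratio ± SE, with n = 2 arrays and the SE from all 12 arrays. All ratios are above 0 for intact males over intact females (4.78 to 7.74) and for both GH comparisons (3.15 to 4.86), below 0 for both hypophysectomy comparisons, and between 0.54 and 2.35 for Hypox males over Hypox females.

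In males the members fell after hypophysectomy. All 11 probes were called lower in Hypox than in intact males (adjusted p from 7.4e-06 to 0.000271), against 18.5% of 25970 probes. The log2 ratios ran from -7.74 (LOC259244) to -4.66 (LOC259245 probe 3) with a median of -5.16, against 0.0084 over all probes. Their sizes and order rest on Hypox male readings beside intact male RNA. In mean log2 intensity these were higher than on other arrays by 1.23 (LOC259244) to 4.80 (Mup5 probe 1).

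LOC259244 had -9.05 on array 1 and -6.43 on array 2, fitted as -7.74 ± 0.48 or 214-fold lower. Obp3 had -7.49 and -5.15, fitted as -6.32 ± 0.61 (79.9-fold lower). Mup4 had -5.64 and -3.72, fitted as -4.68 ± 0.49. As with the sex ratio, the array with intact male RNA in red gave the larger size at every probe. The Mup5 probes gave -4.89 ± 0.39 (-5.58 and -4.21) and -4.75 ± 0.24 (-5.55 and -3.96), and LOC298111 gave -5.32 ± 0.42 (-6.45 and -4.19). The LOC259245 probes gave -4.91 (-5.65 and -4.17), -5.80 (-7.13 and -4.46) and -4.66 (-5.80 and -3.52), and the LOC259246 probes -5.16 (-6.21 and -4.11) and -5.65 (-6.72 and -4.57). All 11 were called without either array, with a median of -4.46 without array 1 and -5.87 without array 2. The erythroid markers (2 of 3 on the array) fell as well, 2 of 2. Of 7 hepatocyte markers tested, 3 fell and 1 rose (median -0.37), and both secretory gland markers tested fell (median -1.04). The markers that rose were 3 of 5 for bile duct, 3 of 4 for endothelium and 2 of 4 for stellate cells, and the part of any of these in the members' fall was not tested. In whole liver, fewer cells of a type and less RNA per cell cannot be told apart.

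In females the members fell after hypophysectomy as well. All 11 probes were called lower in Hypox than in intact females (adjusted p from 3.92e-05 to 0.00309), again against 18.5% of 24310 probes, with log2 ratios from -4.70 (LOC259245 probe 2) to -2.44 (Mup5 probe 1) and a median of -3.99, against 0.00066 over all probes.

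LOC259244 had -4.39 and -4.38 on the 2 arrays, fitted as -4.38 ± 0.48 or 20.9-fold lower. Obp3 had -2.92 and -4.21, fitted as -3.56 ± 0.61 (11.8-fold lower). Mup4 had -2.20 and -3.46, fitted as -2.83 ± 0.49. Both arrays agreed in direction at every probe, and array 2 gave the larger size at 8 of 11. The Mup5 probes gave -2.44 ± 0.39 (-1.83 and -3.06) and -3.40 ± 0.24 (-3.60 and -3.20), and LOC298111 gave -4.23 ± 0.42 (-4.08 and -4.37). The LOC259245 probes gave -3.74 (-3.32 and -4.15), -4.70 (-4.68 and -4.71) and -3.99 (-3.82 and -4.16), and the LOC259246 probes -4.10 (-3.96 and -4.24) and -4.28 (-4.45 and -4.10). On array 1, Obp3, Mup4 and Mup5 probe 1 were not well above background in Hypox females, so that their ratios rest on a floor there. Without array 2, 9 of the 11 were called, with a median of -3.13. With median centring of the arrays in place of loess 3 were called, with a median of -3.91. Both erythroid markers measured fell in this comparison too, and 3 of 5 bile duct, 3 of 3 endothelial and 1 of 3 macrophage markers rose. Of 9 hepatocyte markers 2 rose and 1 fell (median -0.06), and 1 of 2 secretory gland markers fell.

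Hypox males and Hypox females were compared to see whether a sex difference remained without the pituitary. All 11 ratios of Hypox male to Hypox female were above 0, from 0.54 (Mup5 probe 1) to 2.35 (LOC259246 probe 2) with a median of 1.82, but 2 of 11 probes were called higher, against 0.530% of 26028 probes. Those were Mup5 probe 2, with 2.15 and 1.18 on the arrays and a fitted 1.67 ± 0.24, and LOC259246 probe 2, with 2.80 and 1.89 and a fitted 2.35 ± 0.34 (adjusted p = 0.0264 for both). Unadjusted p was under 0.05 at 8 of the 11.

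The other probes gave positive values that did not pass the test. LOC259244 gave 2.13 ± 0.48 (2.64 and 1.63, adjusted p = 0.0964), and LOC298111 gave 1.95 ± 0.42 (2.30 and 1.60, adjusted p = 0.0886). The LOC259245 probes gave 1.45 (1.68 and 1.22), 2.29 (2.74 and 1.84) and 1.96 (2.50 and 1.42), LOC259246 probe 1 gave 1.82 (2.22 and 1.42) and Mup5 probe 1 gave 0.54 (0.72 and 0.35). Array 1, with Hypox male RNA in red, gave the larger ratio at every probe. Hypox female RNA was not well above background for Mup5 probe 1 and LOC259245 probe 1 on 1 array, and for Obp3 and Mup4 on either array. For Obp3 and Mup4 the mean of Hypox males was set over, on each array, the higher of the lowest signal well above background and the probe's own reading. This gave 1.9-fold for Obp3 and 1.68-fold for Mup4, which are point values without an allowance for error. For Mup4 its own reading was the higher on both arrays, so that its value equals the fitted ratio. The fitted ratios, 0.99 ± 0.61 for Obp3 and 0.75 ± 0.49 for Mup4, had adjusted p of 0.529 and 0.559 (limma). Their 95% intervals were -0.41 to 2.39 and -0.38 to 1.88, so that no difference was shown at either. The count differed between alternatives: with the deposited processed signals 11 of 11 were called and the median was 3.41, and with no background subtraction 0 were called and the median was 0.81. With median centring, with no dye coefficient, with the 2 arrays of the comparison alone and without either array, 0 of 11 were called. Both erythroid markers were called lower in Hypox males, against the direction of the members, as was 1 of 3 macrophage markers.

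The loss after hypophysectomy was larger in males than in females. The difference, male minus female on the log2 scale and taken as the mean of its direct estimates (that of the hypophysectomy ratios and that of the sex ratios), was called and negative at 11 of 11 probes, against 6.99% of 23834 probes called lower. It ran from -4.48 ± 0.48 at LOC259244 to -1.92 ± 0.42 at LOC259245 probe 3, with a median of -2.39 and adjusted p from 0.000505 to 0.0203. Obp3 was at -4.08 ± 0.61, Mup4 at -2.94 ± 0.49 and Mup5 probe 1 at -3.50 ± 0.39. The remaining 6 probes lay between -2.39 and -2.28. Taken alone, the difference of the sex ratios ran from -5.60 to -3.18 and was called at 11 of 11, against 5.02% of all probes. The difference of the hypophysectomy ratios alone ran from -3.36 to -0.67 and was called at 2 of 11, LOC259244 (-3.36, adjusted p = 0.0286) and Mup5 probe 1 (-2.45, adjusted p = 0.045), against 4.96% of all probes. These estimates were set apart after the data had been seen. With median centring 0 of 11 were called and with the processed signals 7. Hypox female RNA was not well above background at Obp3 and Mup4 on 3 of its 4 arrays, at Mup5 probe 1 on 2 and at LOC259245 probe 1 on 1. Where both RNAs had to be well above background, these 4 probes were not tested and the other 7 were called. Both erythroid markers were also called lower in this difference, as were 2 of 7 hepatocyte markers and 1 of 2 secretory gland markers.

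The ratios did not add up around the study's loop. Intact male, intact female, Hypox male and Hypox female RNA form a loop of 4 comparisons, whose log2 ratios would sum to 0 if all readings were additive. The sum (Hypox male over intact female through intact males, minus the same through Hypox females) was 2.04 to 2.64 at the 11 probes. Over 23834 probes its median was 0.0063 with SD 0.12. Only 17 probes (0.0713%) reached 2 in size, and 11 of those were the members and 1 a further alpha-2u-globulin probe. The other 5 had sums of either sign, 3.93, -3.47, -2.82, 2.24 and -2.05. These were sex-dependent probes too, with male over female log2 ratios of -4.53, 4.36, 4.70, -4.76 and 5.29 in that order. None of the sums passed the test (adjusted p of 1 in limma, 0% of all probes called), while unadjusted p was under 0.05 at 9 member probes and at 113 probes in all. Through intact males, the log2 ratio of Hypox male to intact female liver was -0.0045 to 0.47 (0 of 11 called, against 19.6% of all probes). Through Hypox females it was -2.57 to -1.73 (9 of 11 called, against 22.3%).

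**Figure D3:**
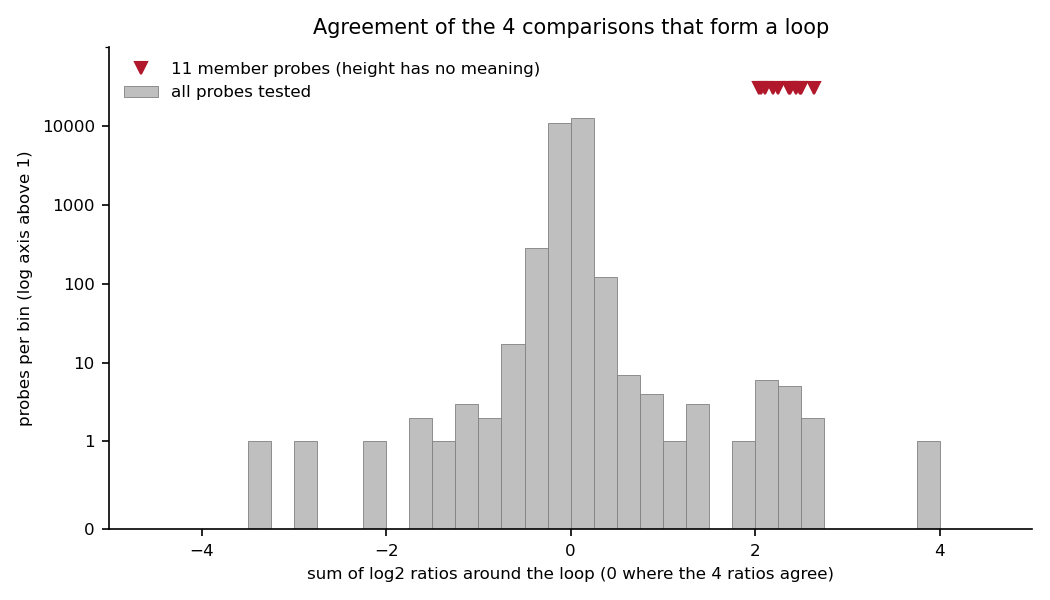
Sum of the log2 ratios around the loop of intact male, intact female, Hypox male and Hypox female RNA, as the number of probes per bin of 0.25 for all 23834 probes tested (grey bars, log axis above 1), with the 11 member probes as red triangles at an arbitrary height. The members lie between 2.04 and 2.64, where few other probes lie.

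GH was given to Hypox males to measure the early response. After 1 injection all 11 probes were called higher than in untreated Hypox males (adjusted p from 0.000153 to 0.0101), against 7.49% of 26349 probes, with log2 ratios from 3.32 (Obp3) to 4.85 (LOC259245 probe 2) and a median of 4.33. After 2 injections all 11 were again called higher (adjusted p from 3.02e-05 to 0.00496), against 15.0% of 28424 probes, from 3.15 (Obp3) to 4.86 (LOC259245 probe 2) with a median of 4.32. None of these arrays held intact male RNA, and Hypox male RNA was well above background at every member probe on all 4.

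Obp3 had 3.31 and 3.32 on the arrays after 1 injection, fitted as 3.32 ± 0.61 or 9.97-fold, and 3.22 and 3.07 after 2, fitted as 3.15 ± 0.61 or 8.85-fold. LOC259244 had 4.14 and 4.93 after 1 injection (4.53 ± 0.48, 23.2-fold) and 4.32 and 4.67 after 2 (4.50 ± 0.48). Mup4 had 3.53 and 4.12 after 1 (3.82 ± 0.49) and 3.56 and 3.60 after 2 (3.58 ± 0.49). The arrays of a comparison differed by less than 1 at every probe and hold the same GH pool, so that for the GH RNA they are a dye swap of 1 sample, and the SE and adjusted p do not cover the spread between GH-treated pools. LOC259245 probe 2 had the largest response, 4.38 and 5.31 after 1 injection (28.8-fold) and 4.62 and 5.11 after 2 (29.1-fold). The other LOC259245 probes gave 4.49 (4.23 and 4.75) and 4.27 (3.84 and 4.71) after 1 injection and 4.27 (4.27 and 4.27) and 4.32 (4.17 and 4.47) after 2. The LOC259246 probes gave 4.46 (4.16 and 4.76) and 4.33 (3.93 and 4.72) after 1 injection and 4.37 (4.27 and 4.47) and 4.36 (4.22 and 4.50) after 2. The lowest responses after either number of injections were those of Obp3, Mup4 and both Mup5 probes. The Mup5 probes gave 3.67 (3.43 and 3.91) and 3.45 (3.09 and 3.81) after 1 injection and 3.56 (3.53 and 3.59) and 3.45 (3.30 and 3.61) after 2, and LOC298111 gave 4.51 (4.22 and 4.80) and 4.43 (4.37 and 4.50). Without either array of the 1-injection comparison 9 of 11 were called, and under median centring 0 were after either number of injections, with medians of 4.21 after 1 injection and 3.91 after 2.

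No difference between 1 and 2 injections passed the test. The difference of 2 minus 1 injections ran from -0.25 (Mup4) to 0.05 (LOC259245 probe 3) with SE from 0.34 to 0.86, and 0 of 11 probes were called by limma, against 10.4% of 26184 probes, with unadjusted p under 0.05 at none. The 95% intervals reached from -2.16 to 1.81 over the probes, which at the least precise probe, Obp3, spans a rise of 3.52-fold and a fall of 4.46-fold. Fitted on the GH arrays alone, which share 1 slide, 3 of 11 probes were called lower after 2 injections, against 41.3% of all probes called in either direction: Mup4 (-0.25), LOC259245 probe 1 (-0.22) and Obp3 (-0.17), which were singled out after their values were seen. The pools differ in the time since the first injection as well as in the number of injections. No time of kill was used here for the 2-injection pool.

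Set against the intact male through the Hypox male RNA, the GH groups stayed lower at every probe in value. The log2 ratio to intact males was -3.21 to -0.39 after 1 injection (median -0.95) and -3.25 to -0.34 after 2 (median -1.10), and 3 of 11 probes were called lower after each, against 19.4% and 29.1% of all probes called in either direction. They were Obp3 (-3.003 ± 0.86 and -3.17 ± 0.86), LOC259244 (-3.21 ± 0.67 and -3.25 ± 0.67) and Mup5 probe 2 (-1.30 ± 0.34 after both). These ratios share the Hypox male arrays with both comparisons and include the readings beside intact male RNA described above. Those Hypox male readings were higher in mean log2 intensity than on its other arrays at 11 of 11 probes. By normalized log2 intensity the GH groups lay farther below intact males at every probe, though on other slides. At Mup4 the means were 17.16 in intact males and 12.11 after 1 injection, where the ratio was -0.85. At LOC259244 they were 18.79 and 14.99, where it was -3.21.

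**Figure D4:**
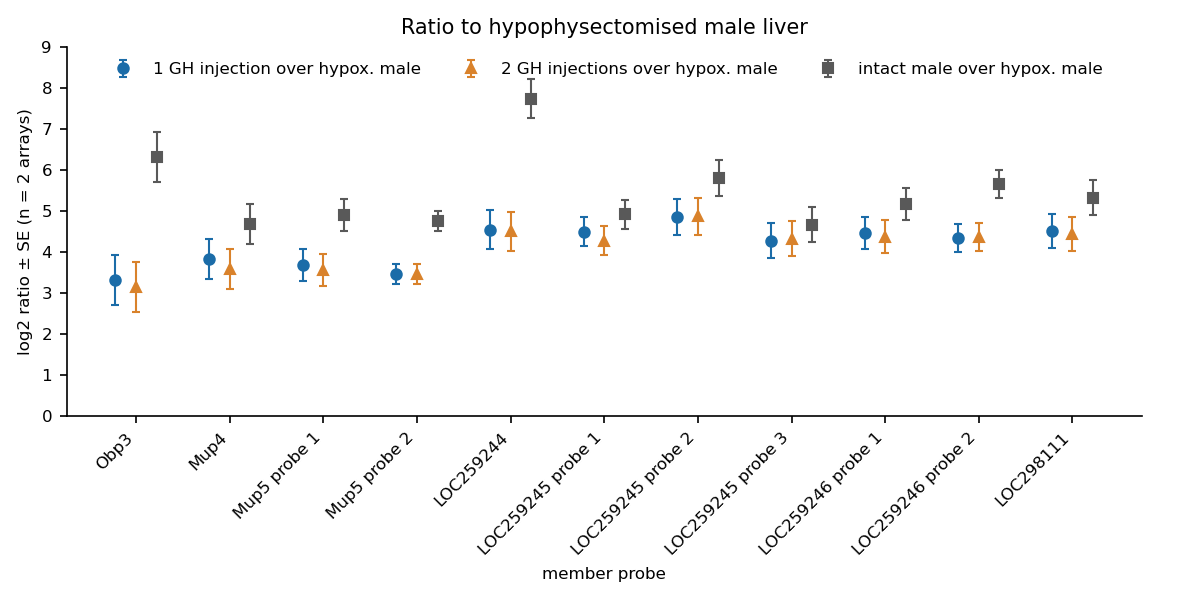
Log2 ratio to Hypox male liver ± SE at the 11 member probes for 1 GH injection (circles), 2 GH injections (triangles) and intact males (squares). Each ratio has n = 2 arrays and an SE from all 12 arrays. The intact male ratio was turned to this direction. The GH values lie between 3.15 and 4.86 and nearly coincide, and the intact male values lie between 4.66 and 7.74, farthest above them at Obp3 and LOC259244. The intact male ratios rest on Hypox male readings beside intact male RNA. In mean log2 intensity these were higher than on other arrays by 1.23 (LOC259244) to 4.80 (Mup5 probe 1).

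Probes of the same gene did not always agree. The Mup5 probes had sex ratios of 5.09 each and differed by 0.95 in the female hypophysectomy comparison and by 1.13 between Hypox males and Hypox females. The second of them matched the RefSeq Mup5 gene by its accession and the first did not. The 3 LOC259245 probes spread over 1.14 in the male hypophysectomy comparison and over 0.57 and 0.60 in the GH comparisons. The LOC259246 probes differed by at most 0.53. These spreads compare with SE of 0.24 to 0.61 for a single probe.

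Beyond the members, 3 probes were described as alpha-2u-globulin in the array files. LOC298116 followed the members, with log2 ratios of 5.66 for male over female, -5.46 for hypophysectomy in males, -4.11 in females, 1.91 between Hypox males and Hypox females and 4.48 after either number of GH injections. The probe X14435 gave 5.63, -5.54, -1.20, 4.88 and 4.14 in the same order without the comparison of Hypox males with Hypox females, where it was not tested. The probe XM_345538 was too dim to be tested in any comparison.

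Of the non-member genes tested in all 6 comparisons and spanning at least 2 log2 units (397 genes), those whose pattern was most like the median of the members were Kynu (Pearson r = 0.991), Ccne1 (0.986), Slc26a1 (0.983), Ccna2 (0.983), Tp53inp2 (0.982) and Sult1c3 (0.978). The r is over 6 comparisons that share RNAs and carries no test. All were smaller in size: the root mean square difference from the members was 3.4 for Kynu and 2.84 for Sult1c3, whose ratio was 2.02 for male over female and 1.36 after 1 GH injection. For male over female Kynu, Ccne1, Slc26a1 and Ccna2 were at 0.45, 0.49, 0.33 and 0.88, against 5.36 for the member median. After 1 GH injection they were at 0.55, 0.34, 0.62 and 0.69, against 4.33. Between Hypox males and Hypox females they were below 0 (-0.06, -0.20, -0.03 and -0.30), against 1.82. Tp53inp2 (0.07) and Sult1c3 (0.50) were above 0 there.

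Genes of the hormone pathways known to act on the family were tested as a list of 20. Of these, 3 were higher and 2 lower in intact males than in intact females, 6 rose and 6 fell after hypophysectomy in males, 6 rose and 7 fell in females, and 5 rose and 3 fell after 1 GH injection and 7 and 3 after 2. Over all probes, 15.5%, 37.5%, 36.3%, 14.3% and 30.9% were called in either direction in these comparisons, in that order. Medians of the list were 0.06, 0.0029, -0.05, -0.06 and 0.12 in that order, against medians over all probes between -0.0093 and 0.0084. Socs2, a feedback inhibitor of GH signalling, fell after hypophysectomy in males (-1.98) and females (-2.12) and rose by 2.16 after 1 injection and 3.28 after 2. Cish, an inhibitor of the same family, was higher in intact males by 1.91, fell in Hypox males (-2.08) and rose by 1.01 and 0.89. Onecut1, a liver transcription factor also named HNF6, was lower in intact males (-2.66), fell after hypophysectomy in males (-2.32) and females (-3.70) and rose after GH by 3.35 and 3.64.

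Other sex-dependent liver genes moved in both directions. Of 14 tested, 7 were higher and 6 lower in intact males, 6 rose and 8 fell in Hypox females, 4 rose and 7 fell after 1 GH injection and 7 rose and 4 fell after 2. In Hypox males 2 rose and 5 fell of 12 tested. Of 13 tested between the Hypox sexes, 4 were higher and 3 lower in males (median 0.15). There 0.949% of all probes were called in either direction. For the other comparisons these shares are those given for the hormone pathway genes. The medians of the list were 2.42 for male over female, -0.66 and -0.96 for hypophysectomy in males and females and -0.09 and 0.20 after 1 and 2 injections. The male-specific steroid hydroxylase Cyp3a2 was higher in intact males by 7.59 and rose after hypophysectomy in females by 7.44, where all 11 member probes fell. Hsd3b5, a male-specific steroid dehydrogenase, was higher in intact males by 5.51 and rose in Hypox females by 4.98. Igf1, the main GH-dependent growth factor of the liver, fell in Hypox males (-3.48) and rose by 2.71 after 2 injections.

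Markers of hepatocytes were present in all RNAs, with 7 of 9 well above background on every array. Of 7 tested between the intact sexes 2 were higher in males and 0 lower (median 0.34), and of 9 tested in the GH comparisons 1 rose after 1 injection and 2 after 2. The erythroid list (2 genes measured) fell 2 of 2 in both hypophysectomy comparisons and rose 2 of 2 in both GH comparisons. It was called at 0 of 2 between the intact sexes and lower 2 of 2 in Hypox males than in Hypox females. Its summed normalized intensity was 7876 to 14350 in intact males, 7271 to 11019 in intact females, 541 to 1512 in Hypox males, 2669 to 4051 in Hypox females, 3844 to 3923 after 1 GH injection and 1964 to 2071 after 2. Bile duct markers (5 measured) rose after hypophysectomy at 3 of 5 in each sex, with sums from 2178 to 2563 in intact males to 6386 to 9658 in Hypox males. All 3 macrophage markers were lower in intact males than in intact females and all 3 rose after 1 injection, with sums of 35759 to 38424 in intact males and 52420 to 55301 after 1 injection. Of the secretory gland markers (4 on the array), Vegp2 and Pip were not well above background in any RNA. Obp1f, an odorant-binding protein that is also in the list of other lipocalins, was higher in intact males by 2.15, while Scgb1a1, a secretory protein of the airways, was at 0.13 and not called. In Hypox males Obp1f fell (-1.67) and Scgb1a1 fell (-0.41), in Hypox females Scgb1a1 fell (-0.21), and neither was called in the other 3 comparisons. Their summed normalized intensity was 740 to 850 in intact males and 356 to 442 in every other RNA. The part of these cell types in the members' changes was not tested.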

How the data were processed

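Frozen liver RNA was amplified and labelled with Alexa 555 or Alexa 647, per the labels. The arrays were read with Agilent Feature Extraction 9.1.3.1, per the file headers, and the authors deposited mean spot and median background intensities that were not normalized. The deposited log10 ratios are of red over green from processed signals, background-subtracted and dye-normalized per the file headers. The deposited log2 value table, which the labels call a normalized ratio, matched channel 2 over channel 1 on the scale of those signals. Other steps are not given in the sources used here.

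Intensities were background-corrected (normexp, offset 50) and loess-normalized within each array. Control spots were left out and spots of a probe averaged, which left 41012 probes, of which 58.4% to 71.1% were well above background in a channel. Log2 ratios of the 12 arrays were fitted with limma 3.58.1 (R 4.3.3), with 6 comparison coefficients and a dye coefficient and 5 residual degrees of freedom. P-values were adjusted by Benjamini-Hochberg over all probes tested, those with at least 1 RNA well above background on both arrays of a comparison, and called under 0.05. A level is a normalized log2 intensity of 1 RNA, made comparable between arrays, and no probe is set against another.

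The 2 arrays of a comparison are its replicates, and their small number limits the precision. In a GH comparison both hold the same GH pool, so that for this RNA they are a dye swap of 1 sample and the error leaves out the spread between GH-treated pools. All arrays of the GH comparisons were on slide 1, and slides 2 and 3 each held 1 array of every other comparison. For 1 array of the 1-injection comparison the group was taken from the title, since its treatment label does not mention GH.

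The text names every member probe, up to 4 called genes of largest change per list and comparison, and the 6 genes most like the members in pattern. The values of 1 list gene are not reported here. Members, lists and tests were chosen with earlier results of these data known. The script was tested on simulated data: for intact males against intact females, on 25702 probes, 97.5% of 200 changes of 1 log2 unit were recovered. Alternatives covered background, normalization, filter, dye, replicate, slide and the arrays used.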

Additional observations from a re-analysis of the deposited data

Results flagged for a closer look

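Of 44 sets of normalized log2 intensities (1 RNA at 1 probe), 10 held a value far from the others by Dixon's test. Chance gives about 1 in 20 where sets are independent. These sets share arrays and near-identical probes, so their count cannot be compared with that share. In 9 of the 10 flagged sets the value was the Hypox female RNA on 1 array, in Alexa 647. That was array 2 of its comparison with intact females, and the value stood above the other 3 readings. The value was 7.44 for Obp3, 7.50 for Mup4, 7.19 for Mup5 probe 1 and 9.72 for Mup5 probe 2. It was 8.05, 9.21 and 8.77 for LOC259245 probes 1, 2 and 3, 8.87 for LOC259246 probe 1 and 8.99 for LOC298111. The other was Hypox male RNA at LOC259245 probe 2, at 14.77 in Alexa 647 beside intact male RNA.

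The fall after hypophysectomy differed between males and females by the test of the difference itself, taken as the mean of the difference of hypophysectomy ratios and that of sex ratios. The former alone was called at 2 of 11 probes, median centring gave 0 of 11, and the estimates rest on ratios whose sum around the loop was 2.04 to 2.64. Male minus female, on the log2 scale, it was -4.08 at Obp3, -2.94 at Mup4, -3.50 and -2.39 at the Mup5 probes, -4.48 at LOC259244 and -2.28 at LOC298111. It was -2.36, -2.32 and -1.92 at the LOC259245 probes and -2.30 and -2.39 at the LOC259246 probes.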

How the results depend on the processing

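No called value of a member probe changed its sign under any alternative run. Of 11 probes, 2 were called between Hypox males and Hypox females; the processed signals and the deposited value table gave 11 each and 1 level per RNA gave 8, while median centring, no background subtraction, no dye coefficient, the comparison's own arrays alone and leaving out either of its arrays gave 0. The difference of hypophysectomy between the sexes was called at 11, against 7 with the processed signals, 7 with the value table, 7 where both RNAs had to be well above background (the other 4 were then not tested), 0 with median centring and 2 from the hypophysectomy ratios alone, an alternative chosen after seeing the data. Median centring gave 3 for hypophysectomy in females and 0 for 1 and for 2 GH injections, each against 11. For 2 minus 1 injections the GH arrays alone gave 3 against 0. The causes were not tested. Leaving out 1 array gave 11 to 11 probes for males over females and for hypophysectomy in males, 9 to 11 for hypophysectomy in females, 9 to 9 and 10 to 11 for 1 and 2 injections, 10 to 11 for the difference between the sexes and 0 to 0 for the difference of injections and the loop. With 1 level per RNA there is no loop value.

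Over all probes, median centring gave 261, 345, 371, 7, 0 and 73 calls in the 6 comparisons in the order of the report, against 3982, 9734, 8827, 247, 3763 and 8769, and 117 against 3211 for the difference between the sexes and 0 against 2720 for that of injections. Without a dye coefficient there were 2600 for males over females, 83 between Hypox males and Hypox females, 2106 after 1 injection, 1889 and 1228 for the differences. The own arrays gave 2680 for hypophysectomy in males, 6 between Hypox males and Hypox females, 810 and 3659 after 1 and 2 injections, 1929 and 10817 for the differences. Between Hypox males and Hypox females the processed signals gave 115, the value table gave 114, no background subtraction 393 and 1 level per RNA 1014; the last gave 6347 for males over females, and no background subtraction gave 4168 for the difference of injections.

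With the replicate block the member counts were 11, 11, 11, 2, 11 and 11 in the 6 comparisons, as without it, and over all probes 143 against 247 between Hypox males and Hypox females. Over 15 pairs of comparisons the same-numbered arrays' deviations correlated between -0.671 and 0.842, above 0.1 in 6, so the numbers were not taken to pair the arrays. Slide as a random block (correlation 0.0137) changed no member count. Signal limits the Hypox female values, of which 35 of 44 were well above background.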

Other observations

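Other lipocalins, relatives of the alpha-2u-globulins, were tested as a list, each gene by its brightest probe. Of 9 tested in intact males over intact females, 3 were called higher and 0 lower (median 0.15). Over all probes 15.5% were called in either direction. The 3 were Pbsn, the androgen-dependent probasin, at 3.68 ± 0.11 (SE from all 12 arrays, n = 2 arrays), Obp1f and Rbp4. Obp1f, an odorant-binding protein of nasal glands, was at 2.15 and Rbp4, the plasma carrier of retinol, at 0.56. Pbsn and Obp1f fell after hypophysectomy in males (-2.999 and -1.67, 2 of 8 tested, against 37.5% of all probes) and the fall was larger than in females for both (-3.48 and -1.65). In Hypox females Pbsn rose by 0.64, and Obp1f was at -0.07 and did not pass the test. After 1 GH injection 1 of 9 rose, Lcn5 by 0.49, against 14.3% of all probes called in either direction. After 2 injections 3 of 10 rose and 2 fell, against 30.9% of all probes. Lcn5 rose by 0.62 and Orm1, an acute-phase plasma protein, by 1.08, while Rbp4 was at -0.52 and Pbsn at -0.37. All 11 member probes rose in both GH comparisons.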
